A study of Arabidopsis thaliana with 6 samples.

Results

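The RNA that whole Arabidopsis thaliana seedlings contain before any immunoprecipitation was compared between the ASI1 line and WT. The comparison used 2 input libraries, 1 from the ASI1 line and 1 from WT, of an RNA immunoprecipitation sequencing (RIP-seq) experiment of 6 libraries. Genes were taken when they were listed in the tables of both lines, lay outside the 4 ribosomal RNA (rRNA) genes and had at least 20 counts in the ASI1 and WT inputs together. This gave 584 genes of the 2319 non-rRNA genes that both tables list, and of 6351 genes listed in either table.

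The ASI1 input and the WT input both came from Col-0 seedlings at 14 d of age, and the genotype label is ASI1 in the first case and WT in the second. Plants of both lines grew at 22 °C in cycles of 16 h of light and 8 h of darkness, with 1% sucrose in the medium, and were crosslinked with 0.5% formaldehyde. The precipitated libraries (2 per line) were made with an anti-Flag antibody, and the labels do not state the promoter, the number of transgenic lines or the tag of the ASI1 line. An input with 1 library per line carries no replicate check. The intervals below therefore cover counting error only, and PCR reads without molecular identifiers are not independent molecules. In bulk RNA from whole seedlings, fewer cells of a type and less RNA per cell cannot be told apart.

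ASI1 (ANTI-SILENCING 1) is an RNA-binding protein with a BAH domain that works with AIPP1 and EDM2. The complex is known for promoting full-length transcripts of genes that carry heterochromatin inside an intron, among them IBM1, which encodes a histone H3K9 demethylase, and the disease resistance gene RPP7. Green seedlings devote much of their nuclear mRNA to photosynthesis, that is to antenna proteins, photosystem subunits, the small subunit of rubisco and the enzymes of carbon fixation, and much of the remainder to translation and the cell wall.

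Most counts in both inputs were rRNA. The ASI1 input held 4461715 listed counts, of which 23810.4 lay outside rRNA, a share of 0.534% (95% Clopper-Pearson interval 0.527% to 0.540%). The WT input held 6383274 listed counts and 61643.6 outside rRNA, a share of 0.966% (0.958% to 0.973%). A level is given below as counts scaled to the same total of non-rRNA counts in each library (CPM outside rRNA), so that 1 count is worth 42.0 CPM in the ASI1 input and 16.2 CPM in the WT input. The floor of 3 counts that a count of 0 allows stands at 126 CPM in the ASI1 input and 48.7 CPM in the WT input. At least 20 counts were reached by 142 genes in the ASI1 input and by 460 genes in the WT input. Among the rRNA genes, AT2G01020 took 0.0694% of all listed counts in the ASI1 input and 0.0306% in the WT input, a ratio of 2.27 (2.14 to 2.40). AT3G41768, which held 99.3% of all listed counts in the ASI1 input and 98.9% in the WT input, had a ratio of 1.00, and AT2G01010 had a ratio of 1.20.

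The 584 genes held 56.1% of the non-rRNA counts of the ASI1 input and 57.0% of those of the WT input, yet the 2 libraries distributed these counts over the genes in different ways. A gene was called higher or lower when its share of non-rRNA counts differed at least 2-fold and the exact 95% counting interval of the ratio left out 1. By this rule 143 genes (24.5%) were higher in the ASI1 input and 127 (21.7%) were lower, and 314 were neither. These 24.5% and 21.7% are the background against which each gene group below is read. The median log2 ratio of ASI1 over WT was 0.44, with 366 genes above 0 and 218 below. Calls in the upward direction made up 53.0% of all calls with this scaling, 11.4% when rRNA was left in the total, 14.4% with TMM scaling and 16.4% with DESeq2 size factors. Those 3 scalings lowered every log2 ratio by 0.86, 0.76 and 0.69. All 127 genes called lower kept their call under each of the 3, an outcome fixed in advance because each lowers every ratio. Of the 143 called higher, 23 kept it under all 3 and 110 under none, so a call of higher below holds for the scaling to counts outside rRNA unless another is named.

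**Figure D1:**
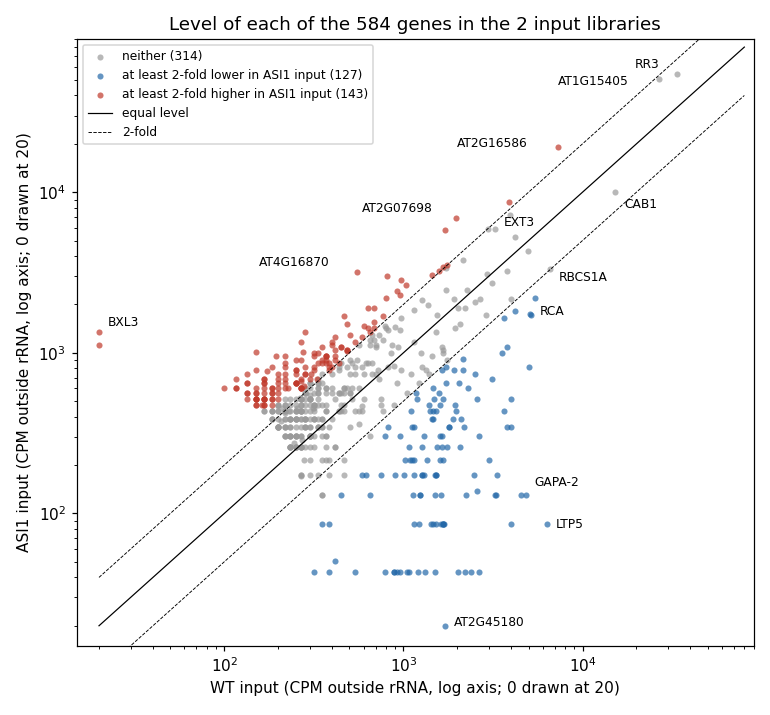
Level of each of the 584 genes in the ASI1 input (vertical axis) and the WT input (horizontal axis), in CPM outside rRNA on log axes, with 1 point per gene. The 143 genes called higher in the ASI1 input lie above the upper dashed 2-fold line, mostly at low levels, and the 127 called lower form a broad cloud below the lower line, down to AT2G45180 with 0 counts in the ASI1 input.

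RR3 and AT1G15405 had the highest levels of the 584 genes in both libraries. RR3, a type-A response regulator of cytokinin signalling, had 1291 counts (54210.1 CPM outside rRNA) in the ASI1 input and 2082 counts (33776 CPM) in the WT input. Its log2 ratio of 0.68 lay under the 2-fold rule with an interval wholly above 0, turned negative with rRNA in the total, with TMM and with DESeq2 size factors, and stood 0.24 above the median of the 584 genes. RR3 overlaps AT2G09250 in the annotation, and whether counting used strand is not given in the sources used here, so reads of the 2 genes may be mixed. AT1G15405, a noncoding RNA gene of unassigned function in the annotation, came next with 1200.1 counts (50404 CPM) in the ASI1 input and 1651 counts (26780 CPM) in the WT input, a ratio of 1.88 (1.75 to 2.03). Both RNAs thus had the higher share in the ASI1 input with this scaling, and AT1G15405 under every scaling tried. AT1G15405 is shown because no other noncoding RNA gene among the 584 came near its level. It lies at chr1:5297875-5298166 on the minus strand of TAIR10.1 and also overlaps a gene of the annotation, AT1G05163. Its sequence (RefSeq, TAIR10.1), all in lower case because no stretch of it is singled out, reads as follows.
AT1G15405: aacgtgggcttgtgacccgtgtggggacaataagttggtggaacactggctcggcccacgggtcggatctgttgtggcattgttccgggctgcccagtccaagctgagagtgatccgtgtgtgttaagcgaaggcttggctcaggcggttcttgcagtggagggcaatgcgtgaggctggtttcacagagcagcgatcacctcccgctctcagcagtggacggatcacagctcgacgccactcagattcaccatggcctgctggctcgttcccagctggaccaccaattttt

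The other 8 genes of highest level divided between cell wall, photosynthesis, rRNA-like and housekeeping genes. CAB1, a chlorophyll a/b-binding antenna protein, had 9974 CPM in the ASI1 input and 15163 CPM in the WT input, and RBCS1A, a small subunit of rubisco, had 3326 CPM in the ASI1 input and 6568 CPM in the WT input. Their ratios were 0.656 (0.567 to 0.758) and 0.505 (0.392 to 0.644), so both levels were lower in the ASI1 input beyond counting error without reaching the 2-fold rule. The extensin-like gene AT3G54580 had 7256 CPM in the ASI1 input and 3944 CPM in the WT input, and EXT3, extensin 3 of the cell wall, had 5863 CPM in the ASI1 input and 3242 CPM in the WT input. The intervals of GRP7, a glycine-rich RNA-binding protein of the clock (ratio 1.23, 0.989 to 1.54), and of HSC70-1, a constitutive chaperone (0.871, 0.690 to 1.09), included 1. AT2G16586 and AT2G01008 are taken up with the near-identical copies below. Together the 10 genes of highest level summed to 4009 counts in the ASI1 input and 6769 counts in the WT input, a ratio of shares of 1.53 (1.47 to 1.59) that fell below 1 with rRNA in the total, with TMM and with DESeq2 size factors.

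Genes far lower in the ASI1 input had clear counts in the WT input and almost none in the ASI1 input. LTP5, a lipid transfer protein, had 2.06 counts (86.4 CPM) in the ASI1 input and 388.4 counts (6301 CPM) in the WT input, so that the WT level was 74.9 times the ASI1 level with an interval of 20.6 to 621. GAPA-2, a subunit of chloroplast glyceraldehyde-3-phosphate dehydrogenase, had 3.09 counts in the ASI1 input and 296.7 counts in the WT input. MTP11, a cation efflux transporter for manganese, had 3.09 counts in the ASI1 input and 279.2 counts in the WT input. All 3 genes stood among the 29 with at least 200 counts in the WT input, and in the ASI1 input they rounded to 2 or 3 counts. The metallothionein MT3 had 1.03 counts in the ASI1 input and 163.8 counts in the WT input. ACD2, red chlorophyll catabolite reductase of chlorophyll breakdown, had 1.03 counts in the ASI1 input and 147.3 counts in the WT input, and VAR1, an FtsH protease of the thylakoid, had 1.03 counts in the ASI1 input and 136.0 counts in the WT input. AT2G45180, annotated as a lipid-transfer and seed storage type protein, was the only one of the 584 genes with 0 counts in the ASI1 input, against 105.1 counts in the WT input, which makes it at least 13.5-fold lower. AT4G11860, AT5G14120 and AT2G07360 completed the 10 genes with the interval bound farthest below 1, with 2.06, 3.09 and 3.09 counts in the ASI1 input and 245.2, 201.9 and 198.8 counts in the WT input.

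Genes called lower reached 20 counts less often in each precipitated library of both lines. In ASI1 RIP 1 these were 75.6% of the genes called lower, 88.1% of those called higher and 86.3% of those called neither. In ASI1 RIP 2 the shares were 57.5%, 75.5% and 74.2%. They were 7.87%, 12.6% and 12.4% in WT RIP 1, and 41.7%, 44.8% and 46.2% in WT RIP 2. In either ASI1 RIP library 122 of the 127 called lower (96.1%) reached 20 counts. So did 141 of the 143 called higher (98.6%) and 304 of the 314 called neither (96.8%). Listing already requires counts in at least 1 of these libraries. LTP5 was low there, with 0 and 7.31 counts in RIP of the ASI1 line and 1.04 and 38.8 counts in RIP of WT. GAPA-2 had 105.6 and 2.09 counts in RIP of the ASI1 line and 6.23 and 130.2 counts in RIP of WT. MTP11 had 0 and 251.7 counts in RIP of the ASI1 line and 1.04 and 8.40 counts in RIP of WT. The RIP libraries differ in depth, with 448561 and 362058 non-rRNA counts in the ASI1 line and 23304 and 103549 in WT. In the ASI1 line GAPA-2 stood at 235 and 5.77 CPM outside rRNA and MTP11 at 0 and 695 CPM. In WT GAPA-2 stood at 268 and 1257 CPM, and MTP11 at 44.6 and 81.1 CPM, where 44.6 CPM is 1.04 counts. The ASI1 replicates thus differed widely in these 2 genes, in opposite order, so the RIP levels give no second estimate of the input difference. Across the 584 genes Spearman's rho between the log2 input ratio and the log2 ratio of the pooled RIP libraries was 0.13, a description over genes of the same libraries.

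Genes higher in the ASI1 input differed by smaller folds and rested on fewer WT counts. The fewer WT counts follow in part from the rule, which is applied to these same counts. BXL3, a beta-xylosidase of cell wall remodelling, had 31.9 counts (1339 CPM) in the ASI1 input and 0 in the WT input, which makes it at least 27.6-fold higher. The tetratricopeptide repeat gene AT1G01320 had 26.7 counts in the ASI1 input and is listed at about 0 in the WT input, at least 23.3-fold higher. Both genes had counts in the 2 WT RIP libraries, 10.4 and 115.5 for BXL3 and 3.10 and 38.7 for AT1G01320, which for BXL3 its listing already requires. Both kept their call under the 3 other scalings. AT3G28550, a proline-rich extensin-like gene, had 71.2 counts in the ASI1 input and 49.9 counts in the WT input (ratio 3.68, 2.52 to 5.39). PRH75, a DEAD box RNA helicase, had 31.9 counts in the ASI1 input and 17.5 counts in the WT input (ratio 4.60, 2.51 to 8.71). FIP1[V], a polyadenylation factor of the cleavage and polyadenylation machinery, had 950.2 CPM in the ASI1 input and 194.9 CPM in the WT input (ratio 4.96, 2.37 to 10.9). In plain counts AT3G28550 and PRH75 differed less than in shares, since the ASI1 input has the smaller non-rRNA total. The pseudogene AT4G16870 had 3196 CPM in the ASI1 input and 551.5 CPM in the WT input (ratio 5.79, 3.81 to 8.95).

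**Figure D2:**
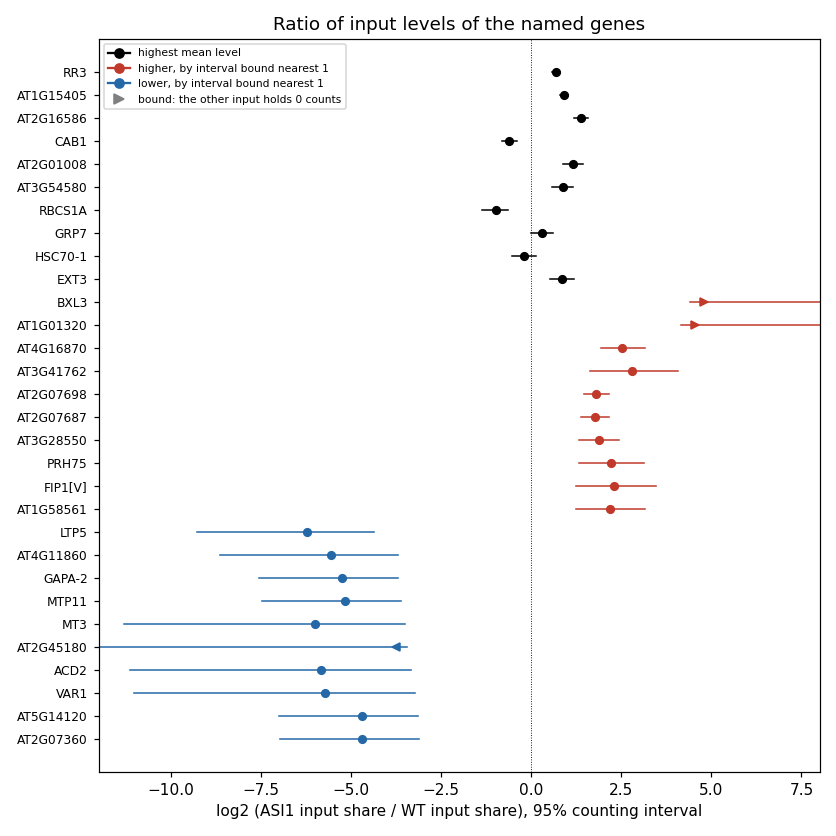
Log2 ratio of the ASI1 input share over the WT input share, with its 95% counting interval, for the 10 genes of highest level (black), the 10 called higher (red) and the 10 called lower (blue) whose interval bound nearest 1 lies farthest from it. Triangles mark bounds for BXL3, AT1G01320 and AT2G45180, of which 1 input holds 0 counts. The blue intervals are long because they rest on 0 to 3 counts in the ASI1 input, and all of them end below the red and black ones.

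A known ASI1 target was called higher, a call that 3 other scalings did not keep. RPP7 (AT1G58602), an NLR disease resistance gene with a transposon-rich intron, had 20.6 counts (864 CPM) in the ASI1 input and 21.6 counts (351 CPM) in the WT input, a ratio of 2.47 (1.29 to 4.71). Its log2 ratio of 1.31 became 0.45 with rRNA in the total, 0.54 with TMM and 0.61 with DESeq2 size factors, under the 2-fold rule in each. AT1G58561 is annotated as a pseudogene inside RPP7 and had 27.8 counts in the ASI1 input and 16.5 counts in the WT input, a ratio of 4.53 (2.37 to 8.96), called higher under each of these scalings. AT1G58561 and RPP7 overlap, so their reads may be mixed. In the RIP libraries AT1G58561 had 1430.1 and 1221 counts in the ASI1 line and 0 and 1.05 counts in WT, a contrast of the precipitated RNA and not of the input. IBM1 missed the minimum, with 7.20 counts in the ASI1 input and 3.09 counts in the WT input (ratio 6.04, 1.38 to 36.2). The genes of the complex were too thinly covered for any comparison. EDM2 had 3.09 counts in the ASI1 input and 7.21 counts in the WT input, the BAH domain gene AT4G11560 had 0 counts in the ASI1 input and 8.24 counts in the WT input, and ASI1 itself (AT5G11470) was listed in the table of the ASI1 line alone, with 2.54 input counts. The input therefore gives no check of the ASI1 level between the lines.

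Nuclear genes of the light reactions of photosynthesis took a lower share of the ASI1 input. With at least 60 counts in both inputs together, lower calls were about as frequent as among all genes of that range. Of the light reaction genes 56.5% were called lower and 0% higher there, against 52.4% and 13.6% of all genes. The 7 with fewer counts had 0 calls either way, against 30.4% higher and 5.03% lower among all genes of that range. Their median log2 ratio was 0.05, against 0.73 over all genes of that range. Of all 30 genes measured, 13 were called lower and 0 higher, all 30 lay below the median of the 584 genes, and 24 had a log2 ratio below 0. Their median log2 ratio was -0.67, negative under every scaling tried, against 0.44 over all 584 genes. Summed over the list, they took 3.68% of non-rRNA counts in the ASI1 input and 6.83% in the WT input, a ratio of 0.535 (0.497 to 0.576).

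Antenna proteins, which bind chlorophyll and feed light energy to the photosystems, supplied most of these counts. The 14 antenna genes summed to 2.74% of non-rRNA counts in the ASI1 input and 4.66% in the WT input (ratio 0.589, 0.540 to 0.641), with 6 called lower. LHCB3 stood lowest, with 8.23 counts in the ASI1 input and 245.2 counts in the WT input, followed by LHCA3 with 25.7 counts in the ASI1 input and 233.9 counts in the WT input. LHCA2 had 43.2 counts in the ASI1 input and 257.6 counts in the WT input. LHCB5 and LHCB6 did not follow them, with 74.0 and 13.4 counts in the ASI1 input and 180.3 and 26.8 counts in the WT input (log2 ratios 0.09 and 0.32). LHB1B2 had 77.5 counts in the ASI1 input and 234.0 counts in the WT input (ratio 0.852, 0.650 to 1.11) and was not called. CAB1, CAB2 and CAB3 are close paralogues whose reads the counting could divide between them. Summed, they had 295.1 counts in the ASI1 input and 1261 counts in the WT input, a ratio of 0.606 (0.532 to 0.688), so the lower share does not depend on that division.

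Photosystem subunits gave a similar picture. The 5 photosystem I subunits summed to 68.9 counts in the ASI1 input and 493.5 counts in the WT input (ratio 0.361, 0.277 to 0.467), with PSAO, PSAF and PSAD-2 called lower. PSAD-1, the paralogue of PSAD-2, had 12.3 counts in the ASI1 input and 31.9 counts in the WT input and a log2 ratio of -0.04, whereas PSAD-2 had 10.3 counts in the ASI1 input and 86.5 counts in the WT input and a log2 ratio of -1.75. The 6 photosystem II subunits summed to 102.8 counts in the ASI1 input and 496.6 counts in the WT input (ratio 0.536, 0.430 to 0.665), with PSBO2 and PSBP-1 of the oxygen-evolving complex called lower. DRT112, a plastocyanin that carries electrons to photosystem I, had 12.3 counts in the ASI1 input and 159.7 counts in the WT input. ATPC1, the gamma subunit of the chloroplast ATP synthase, had 8.23 counts in the ASI1 input and 111.2 counts in the WT input.

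Carbon fixation and photorespiration genes were spread more widely. Of 26 genes, 10 were called lower and 3 higher, with a median log2 ratio of -0.38, negative under every scaling tried. The list took 2.36% of non-rRNA counts in the ASI1 input and 4.95% in the WT input. The rubisco small subunit genes RBCS1A, RBCS2B and RBCS3B are close paralogues and summed to 129.1 counts in the ASI1 input and 950.5 counts in the WT input (ratio 0.352, 0.290 to 0.422). RCA, the activase of rubisco, had 41.1 counts in the ASI1 input and 317.3 counts in the WT input (ratio 0.335, 0.236 to 0.465). The 3 genes of chloroplast glyceraldehyde-3-phosphate dehydrogenase were unequal. GAPA-2 and GAPB were called lower, with log2 ratios of -5.26 and -2.57, while GAPA had 13.4 counts in the ASI1 input and 26.8 counts in the WT input and a log2 ratio of 0.32. Of 10 photorespiration genes 3 were called lower and 0 higher, against 21.7% and 24.5% of all genes. Their median log2 ratio was -0.13 and the ratio of their sums 0.791 (0.676 to 0.921). The 3 were the glycolate oxidases GOX1 and GOX2 and the serine hydroxymethyltransferase SHM1, with GOX2 at 2.06 counts in the ASI1 input and 102.0 counts in the WT input. CAT3, a catalase, had 89.5 counts in the ASI1 input and 132.9 counts in the WT input and was neither. CA1, a carbonic anhydrase, RPE, ribulose-phosphate epimerase, and the transketolase AT3G60750 were the 3 called higher. With rRNA in the total, with TMM and with DESeq2 size factors 0 were called higher and 14, 13 and 13 lower, and with scaling to the shared genes 2 were higher and 12 lower.

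Photosynthesis genes are rich in counts, and the ratio differed between ranges of counts over all genes. Among the 296 genes with 20 to 40 counts in both inputs together the median log2 ratio was 0.77, with 84 called higher and 7 lower. Among the 85 with 60 to 100 counts it was -0.95, with 13 called higher and 40 lower, and among the 58 with 100 to 150 counts it was -1.76, with 7 called higher and 38 lower. Above that the median followed no steady course, at -0.45 for 150 to 200 counts (22 genes), -1.82 for 200 to 300 counts (23 genes) and -0.21 for 300 counts or more (18 genes). Among all 206 genes with at least 60 counts, 108 (52.4%) were called lower and the median was -1.22. The 23 light reaction genes of that range had 13 called lower (56.5%) and a median of -1.16, and the 17 carbon fixation and photorespiration genes had 10 called lower (58.8%) and a median of -1.53. Their share of lower calls was thus near that of all genes of this range, while 0% and 5.88% were called higher, against 13.6%. With 20 to 60 counts the medians were 0.05 (7 light reaction genes) and 0.32 (9 carbon fixation and photorespiration genes). Over all 378 genes with 20 to 60 counts the median was 0.73. The 4 leaf mesophyll markers are themselves members of these lists. RCA and CAB2 were called lower, RBCS1A was neither and CA1 was higher, and the 4 summed to 169.7 counts in the ASI1 input and 854.8 counts in the WT input. The root marker PYK10, a beta-glucosidase of root endoplasmic reticulum bodies, was called higher. It had 45.2 counts in the ASI1 input and 42.2 counts in the WT input (ratio 2.77, 1.78 to 4.33). The PYK10 call was lost with rRNA in the total, with TMM and with DESeq2 size factors. PYK10 was the only root marker measured. The epidermis marker KCS6 and the vascular marker SUC2 also had log2 ratios above 0, at 1.23 and 0.51. Their intervals included 1 and neither was called. The part of leaf and root RNA in these results was not tested.

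**Figure D3:**
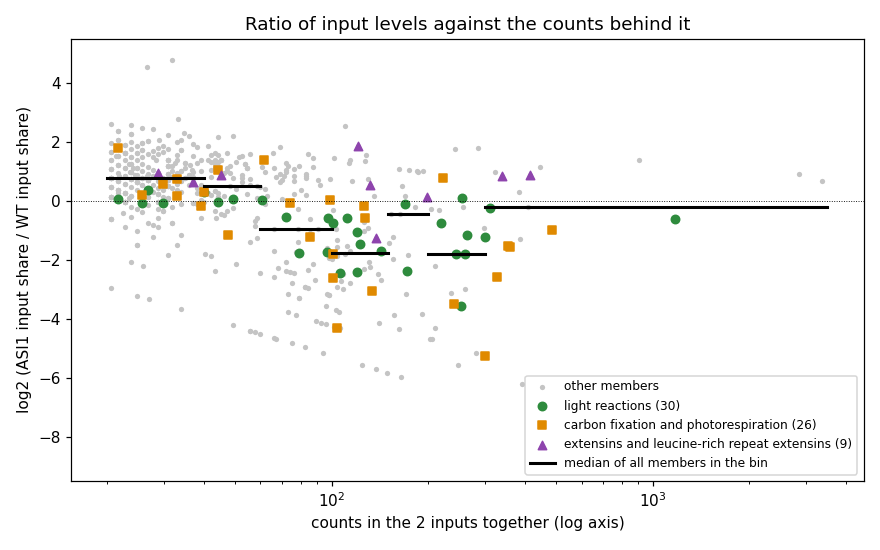
Log2 ratio of the ASI1 input share over the WT input share (vertical axis) against the counts of a gene in both inputs together (horizontal log axis), with 1 point per gene and black bars for the median of all genes in a range of counts. The bars stand at 0.77 for 20 to 40 counts and at 0.52 for 40 to 60 counts. They stand at -1.76 for 100 to 150 counts and at -0.21 for 300 counts or more. The light reaction genes (green) reach at most 0.37, so those with fewer than 60 counts lie below the bars of their ranges. With this scaling 8 of the 9 extensin genes (purple) lie above 0.

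The WT input had many genes at 60 to 100 counts whose share was far smaller in the ASI1 input. In the WT input the number of genes fell from 149 with 20 to 40 counts to 55 with 60 to 80 counts, then stood at 70 with 80 to 100 counts. In the ASI1 input the numbers in the same ranges of counts were 91, 11 and 4, in a library with fewer non-rRNA counts, so that equal shares fall into lower ranges there. The 584 genes included 67 with 60 to 100 WT counts, of which 50 were called lower and 3 higher. The 32 with 60 to 80 WT counts had a median of 5.66 counts in the ASI1 input, where an equal share would have given 27.5, and 16 of them had at most 5 counts. The 131 with 20 to 40 WT counts had a median of 14.4 counts in the ASI1 input, where an equal share would have given 9.95. Of the 127 genes called lower, 107 had at least 60 counts in the WT input and 68 had at most 5 counts in the ASI1 input. Of the 143 genes called higher, 124 had fewer than 40 counts in the WT input. The calls are made from these same counts, so these numbers follow in part from the rule. Choosing genes by the sum of both inputs, of which WT supplies most, favours genes that are high in WT. Among the 134 genes with at least 20 counts in the ASI1 input alone, 64 were called higher and 8 lower. Among the 342 with at least 20 counts in the WT input alone, 55 were called higher and 126 lower. Spearman's rho between the ASI1 and WT counts of the 584 genes was 0.11, a description over genes chosen by their sum.

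**Figure D4:**
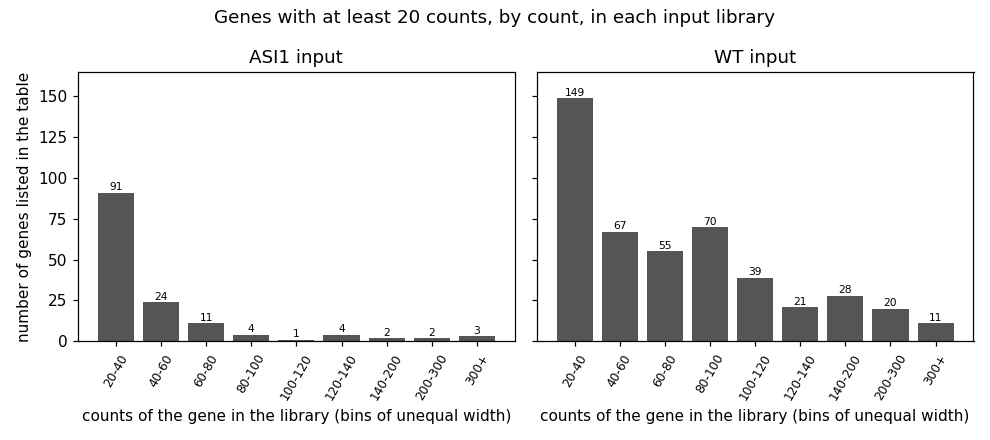
Number of genes listed in the table of each line (vertical axis) by the counts of the gene in the input library (horizontal axis, from 20 counts, in bins of unequal width), for the ASI1 input on the left and the WT input on the right. The ASI1 numbers fall from 91 to 24, 11 and 4 over the first 4 bins, whereas the WT numbers stand at 149, 67, 55 and 70.

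Genes near-identical to rRNA or to the mitochondrial genome stood almost all on the higher side. By alignment of transcripts at 95% identity or more over at least 500 bases, 3 of the 584 genes matched ribosomal DNA (rDNA) and 10 matched the mitochondrial genome, and 12 of these 13 were called higher, against 24.5% of all 584 genes. With rRNA in the total 2 of the 13 were called higher, and with TMM and with DESeq2 size factors 5, against 23, 29 and 33 of all 584. The 3 rDNA-like genes AT2G16586, AT2G01008 and AT3G41762 summed to 686.0 counts in the ASI1 input and 696.9 counts in the WT input, that is to 2.88% and 1.13% of non-rRNA counts (ratio 2.55, 2.29 to 2.84). The 10 mitochondrial-like genes lie together on chromosome 2 and summed to 574.9 counts in the ASI1 input and 483.3 counts in the WT input (ratio 3.08, 2.73 to 3.49). Among them AT2G07698, annotated as an ATPase alpha subunit, had 164.5 counts in the ASI1 input and 121.6 counts in the WT input (ratio 3.50, 2.75 to 4.46). AT2G07687, annotated as cytochrome c oxidase subunit III, had 137.8 counts in the ASI1 input and 105.1 counts in the WT input (ratio 3.40, 2.62 to 4.43). AT2G07717 was the exception, with 10.3 counts in the ASI1 input and 26.8 counts in the WT input. Its match covers 522 of 1454 transcript bases. Partial matches also occur among the genes called higher, as in AT2G07715 (956 of 2170 bases) and AT2G16586 (608 of 1135 bases). Neither table lists a gene of the mitochondrial genome itself, and whether these reads came from the nuclear copies or from the originals cannot be told apart from counts per gene.

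Stretches of 100 bases show how alike the copies are (RefSeq, TAIR10.1). The AT2G16586 stretch lies at chr2:7191346-7191445 on the plus strand and its rDNA match at chr3:14197300-14197399, and capitals mark the 3 bases that differ. The AT2G07698 stretch lies at chr2:3362522-3362621 on the plus strand and matches bases 68505 to 68604 of the mitochondrial genome, minus strand, with 0 mismatches, so nothing is in capitals.
AT2G16586: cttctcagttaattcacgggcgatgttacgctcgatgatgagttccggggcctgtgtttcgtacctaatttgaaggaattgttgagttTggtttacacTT
rDNA: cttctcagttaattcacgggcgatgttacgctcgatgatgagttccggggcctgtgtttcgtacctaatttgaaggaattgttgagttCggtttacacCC
AT2G07698: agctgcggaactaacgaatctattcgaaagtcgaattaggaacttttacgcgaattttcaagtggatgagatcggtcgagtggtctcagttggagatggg
mitochondrial genome: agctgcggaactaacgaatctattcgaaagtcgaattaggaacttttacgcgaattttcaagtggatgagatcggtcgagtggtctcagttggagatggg

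Noncoding RNA genes and pseudogenes lay on the same side. The 5 noncoding genes had log2 ratios of 0.47 to 1.87, with a median of 1.08 that stayed positive under every scaling tried. Of these 5, U1.5, a U1 spliceosomal snRNA, was called higher with 25.7 counts in the ASI1 input and 27.8 counts in the WT input (ratio 2.40, 1.35 to 4.25). U3D, a U3 snoRNA of rRNA processing, was also called higher with 24.2 counts in the ASI1 input and 16.9 counts in the WT input (ratio 3.65, 1.88 to 7.25). Of 5 pseudogenes 4 were called higher, among them AT4G16870 and AT1G58561. AT2G07712 and AT2G07747, the other two, are mitochondrial-like. Protein-coding genes made up 127 of the 127 called lower, 137 of the 143 called higher and 574 of all 584. Over the 574 protein-coding genes Spearman's rho between the log2 ratio and transcript length was 0.21, with exon number -0.01 and with the longest intron 0.08, as descriptions over genes that share their 2 libraries. The median transcript was 2510 bases among the genes called higher and 1841 bases among those called lower. The genes were spread over the 5 chromosomes with median log2 ratios of 0.37 to 0.52.

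Cell wall genes divided by family. Extensins are hydroxyproline-rich structural proteins that are crosslinked into the wall, and leucine-rich repeat extensins link the wall to growth signalling. The 9 genes of the 2 families summed to 553.4 counts in the ASI1 input and 900.7 counts in the WT input, a ratio of 1.59 (1.43 to 1.77) that fell below 1 with rRNA in the total, with TMM and with DESeq2 size factors. Only AT3G28550 was called higher and LRX3 was called lower, with 18.5 counts in the ASI1 input and 118.5 counts in the WT input. The 6 extensin genes with at least 60 counts had a median log2 ratio of 0.70, against -1.22 over the 206 genes of that range. Wall synthesis and remodelling genes had 4 called higher and 1 lower of 16. CESA1, a catalytic subunit of cellulose synthase for the primary wall, had 39.1 counts in the ASI1 input and 59.8 counts in the WT input (ratio 1.68, 1.09 to 2.56), 0.31 above the median of the 584 genes on the log2 scale and negative there with rRNA in the total and with TMM. AUD1, an enzyme of UDP-xylose synthesis, was the gene called lower, with 4.11 counts in the ASI1 input and 152.5 counts in the WT input. Their median of 0.45 lay at that of all genes and turned negative with rRNA in the total, with TMM and with DESeq2 size factors.

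Splicing factors leaned to the higher side. Of 16 genes 7 were called higher (43.8%) and 1 lower, against 24.5% and 21.7% of all genes, and the median log2 ratio of 0.96 stayed positive under every scaling tried. With rRNA in the total 0 were called higher and 2 lower, and with TMM and with DESeq2 size factors 1 was higher and 2 lower. Those called higher included SUS2, a PRP8 protein of the spliceosome core, with 1512 CPM in the ASI1 input and 484.7 CPM in the WT input. CDC5, a spliceosome-associated MYB protein, had 33.9 counts in the ASI1 input and 42.2 counts in the WT input. U2AF35B, a small subunit of the factor that recognises the 3′ splice site, had 11.3 counts in the ASI1 input and 10.3 counts in the WT input. U1-70K, a protein of the U1 particle, went the other way with 16.5 counts in the ASI1 input and 192.7 counts in the WT input (ratio 0.215, 0.120 to 0.358). The list had 11 genes with fewer than 60 counts, of which 5 were called higher (45.5%), where 30.4% of all genes of that range were.

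Translation genes did not form a single group. Cytosolic small subunit ribosomal protein genes had 3 called higher and 0 lower of 9, and large subunit genes had 5 called higher and 4 lower of 14. The lowest was AT1G43170, a ribosomal protein gene annotated as RP1, with 5.14 counts in the ASI1 input and 185.4 counts in the WT input. RPL5B had 14.4 counts in the ASI1 input and 10.3 counts in the WT input and was called higher. The medians of small and large subunit genes, 0.69 and 0.82, turned negative with rRNA in the total, and that of the small subunit genes also with TMM. Elongation factor genes had 1 called higher and 0 lower of 6, where the elongation factor 1-alpha gene AT5G60390 had 17.5 counts in the ASI1 input and 85.5 counts in the WT input (ratio 0.512, 0.285 to 0.868). Reference genes of expression studies differed among themselves. ACT2, an actin, had 27.8 counts in the ASI1 input and 33.0 counts in the WT input (ratio 2.20, 1.28 to 3.75). ACT2 was not called higher with rRNA in the total, with TMM or with DESeq2 size factors. UBQ10, a polyubiquitin gene, had 21.8 counts in the ASI1 input and 132.9 counts in the WT input (ratio 0.428, 0.260 to 0.676). These 2 genes therefore give no common fixed point for scaling.

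Stress, clock and defence lists held few genes, with single genes far down. In the circadian clock list 0 were called higher and 1 lower of 6. TOC1, PRR7 and TIC, genes of the clock network, had log2 ratios of 0.69, 0.96 and 0.76, which for TOC1 and TIC turned negative with rRNA in the total and with TMM, and stood 0.25, 0.51 and 0.32 above the median of the 584 genes. The gene called lower, CCL, had 1.03 counts in the ASI1 input and 92.7 counts in the WT input. Cold, drought and abscisic acid genes had 2 called higher and 2 lower of 14, with HAB1, a phosphatase of abscisic acid signalling, at 1.03 counts in the ASI1 input and 74.2 counts in the WT input. Rapid stress, wounding and touch genes had 1 called higher and 2 lower of 5. EBP, an ethylene response factor, was the one called higher, with 26.7 counts in the ASI1 input and 24.7 counts in the WT input (ratio 2.80, 1.56 to 5.02). LOX2, a chloroplast lipoxygenase of jasmonate synthesis, had 9.26 counts in the ASI1 input and 129.8 counts in the WT input, and MYB73 had 4.11 counts in the ASI1 input and 92.7 counts in the WT input. GER1, a germin-like protein, had 3.30 counts in the ASI1 input and 158.7 counts in the WT input, and the wall-associated kinase WAK1 had 4.11 counts in the ASI1 input and 78.3 counts in the WT input. PEN3, a transporter of defence compounds, had 80.2 counts in the ASI1 input and 106.1 counts in the WT input and was not called. Among NLR genes ZAR1 was called higher beside RPP7, with 13.4 counts in the ASI1 input and 8.24 counts in the WT input, and AT1G61100 was called lower, with 7.20 counts in the ASI1 input and 162.8 counts in the WT input. Chromatin and gene silencing genes had 1 called higher (MBD10) and 1 lower (AGO1, the main microRNA effector) of 5. The lists of guard cell, seed, meristem and flower markers had 0 genes among the 584.

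**Figure D5:**
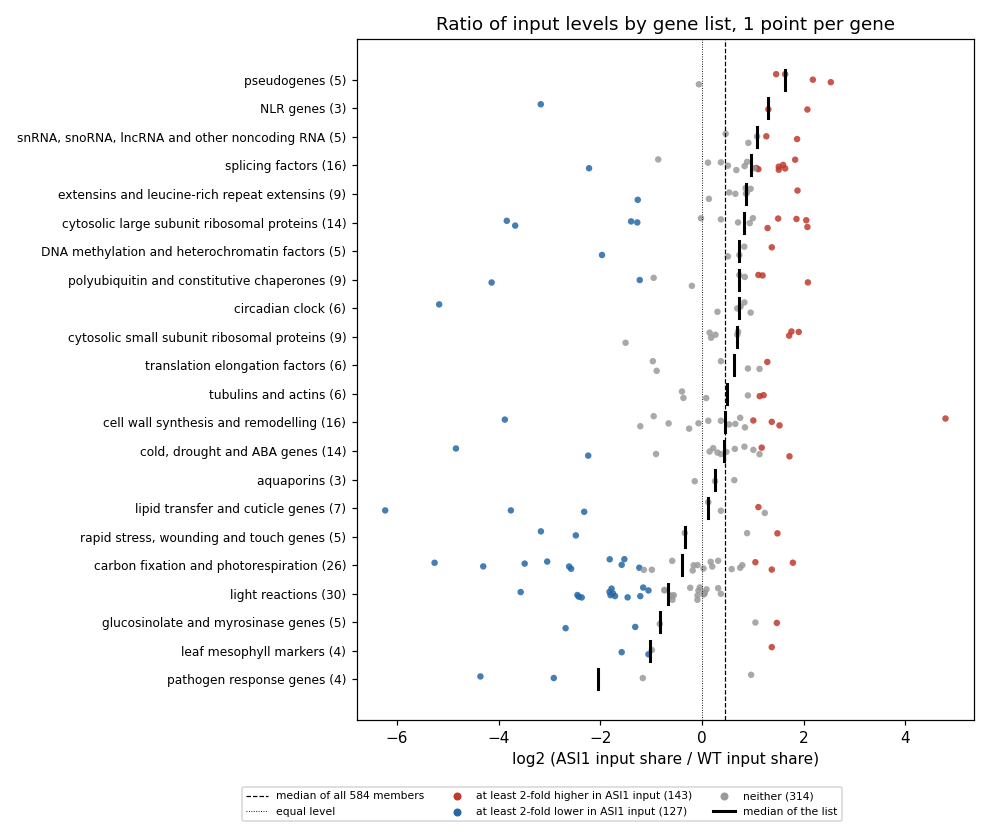
Log2 ratio of the ASI1 input share over the WT input share (horizontal axis) for each gene list with at least 3 genes, with 1 point per gene, the list median as a black bar and the median of all 584 genes as a dashed line. Pseudogenes, noncoding RNAs, splicing factors and extensins have medians of 0.86 to 1.64. The light reaction and carbon fixation lists have medians of -0.67 and -0.38, with no light reaction gene to the right of the dashed line. Lists of few genes have lower medians. These are -2.04 for pathogen response genes (4), -1.02 for leaf mesophyll markers (4) and -0.83 for glucosinolate and myrosinase genes (5).

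Genes listed in the table of 1 line only were not compared. A table lists a gene only if at least 2 of its 3 libraries have a value above 0, so listing depends on the RIP libraries too. Such genes held 4294 of the non-rRNA counts in the ASI1 input, where 8 had at least 20 counts, and 17385 in the WT input, where 118 had. Genes at the minimum did not stand apart, since the 27 genes with 20 to 21 counts in both inputs together had a median log2 ratio of 0.79 and the 32 with 19 to 20 counts had a median of 0.91.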

How the data were processed

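Whole-seedling input RNA of the ASI1 line and of WT was measured by sequencing, with 1 library per line. The authors deposited 1 table per line that gives, per the file headers, expected counts of its input and of its 2 RIP libraries, that is estimated read numbers that can hold fractions. The deposited CPM, the authors' log2 fold changes and their p-value columns stand beside the expected counts, per the file headers, and were not used for the comparison. STAR 2.6.0c, Salmon 0.10.2 and edgeR appear in the submitters' processing notes without a role. A genome build and a strand setting are not given in the sources used. All gene identifiers (100%) matched TAIR10.1 (RefSeq), from which symbols, coordinates and sequences were taken.

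For the ratios, expected counts were taken as the nearest whole number and divided by the counts outside AT3G41768, AT2G01010, AT2G01020 and AT3G41979. Ratios carry exact conditional binomial (Clopper-Pearson) 95% intervals, and a count of 0 was set to 3 counts for a bound. No p-value was computed, since each side has 1 library. The interval was tested on simulated counts that held counting error alone, the error it assumes. That test therefore does not cover PCR duplicates or the spread between libraries. Named genes were the 10 of highest mean level and the 10 per direction with the interval bound farthest from 1. All known targets and complex genes were added, and the 3 of each list with most counts. Not all genes chosen from the lists in this way are described above. LHCB3, LHCA3, LHCB5, LHCB6, the photosystem, plastocyanin and ATP synthase genes, GAPA, GAPB, GOX1, GOX2, SHM1, CAT3, CA1, RPE, AT3G60750, AT2G07717, AT2G07747, LRX3, SUS2, U2AF35B, RPL5B, TOC1, PRR7 and HAB1 were singled out after their values were seen. The members and gene lists were chosen with earlier results of these data known. Other scalings, count minimums, folds and intervals were tried as alternatives. Tools were scipy 1.17.1, pandas 2.3.3 and numpy 2.4.6 under Python 3.11.15, matplotlib 3.10.9 for plots, BLAST 2.17.0, R 4.3.3, and edgeR 4.0.16 and DESeq2 1.42.0 for scaling alone.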

Additional observations from a re-analysis of the deposited data

How the results depend on the processing

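No paired analysis was possible because each line has a single input library. The count of genes higher in the ASI1 input, 143, changed with the scaling, the count minimum and the fold. It was 23 with rRNA in the total, 29 with TMM, 33 with DESeq2 size factors and 24 at a fold of 4. It was 318 with no count minimum, 256 with a minimum of 10, 37 with 50 and 15 with 100. The count of genes lower, 127, was 68 with a minimum of 100 and stayed within 1.5 times of 127 under the other settings apart from minimums set in a single library, from 89 at a fold of 4 to 179 with rRNA in the total. The median log2 ratio of 0.44 was 0.25 with scaling to genes of both tables, -0.41 with rRNA in the total, -0.32 with TMM and -0.25 with DESeq2 size factors. It was 0.69 with no minimum, 0.69 with a minimum of 10, -0.96 with 50 and -1.31 with 100. Alternatives chosen after seeing the data were a minimum of 20 counts in the ASI1 input alone (64 higher, 8 lower, median 0.97), in the WT input alone (55 higher, 126 lower, median -0.30), and scaling without the near-identical copies (154 higher, 126 lower, median 0.49). Leaving out the 10 genes of highest level from the total kept 123 of the 127 lower calls. Of the 92 named genes, none past the 2-fold rule changed sign under the 7 scaling and rounding alternatives. No scaling could have changed a sign there, since the largest log2 shift, 0.86, is less than a 2-fold change. The light reaction list had 12 to 20 genes called lower and 0 higher under the 7 alternatives. Depth limits the ASI1 side most, where 1 count is worth 42.0 CPM. The cause of these differences was not tested.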
